A study of Mus musculus with 12 samples.

Results

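Transcripts of 27 genes that encode subunits of ionotropic glutamate receptors and GABA-A receptors were followed through 12 cortex RNA-seq libraries of mice at postnatal day 16. The genes were chosen by name, as 4 AMPA, 7 NMDA, 5 kainate and 1 delta receptor subunit genes and 10 GABA-A subunit genes out of 23354 gene symbols, and they do not include every subunit of these families. Each of the 27 had its own row, and 25 reached a mean of 0.5 FPKM (fragments per kilobase of a transcript's length, relative to all mapped fragments) over the libraries, the minimum for testing. In the Dnmt1 CKO mice (Olig1cre/+;Dnmt1flox/flox) and the Dnmt3a CKO mice (Olig1cre/+;Dnmt3aflox/flox), cre recombinase is driven from the Olig1 locus, a gene of the oligodendrocyte lineage, and deletes a floxed DNA methyltransferase gene. The Dnmt1 controls (Olig1+/+;Dnmt1flox/flox) and Dnmt3a controls (Olig1+/+;Dnmt3aflox/flox) were littermates that carried both floxed alleles but no cre, all on a C57BL/6 background, with 3 biological replicates in each of the 4 groups. The CKO mice thus also differed from their controls by 1 Olig1 allele, and the cells without cre in the dissected tissue, neurons among them, were not targets of the deletion by that design.

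Ionotropic receptors are ion channels that open when a transmitter binds. Glutamate acts on AMPA receptors, which carry the fast excitatory current, on NMDA receptors, which pass calcium when the membrane is already depolarized, and on kainate receptors, which tune release and excitability; GABA opens the chloride-conducting GABA-A receptors, the main source of fast inhibition. Each channel is assembled from several subunits, and cortex exchanges some of them for others in the first postnatal weeks. Most of these genes are expressed mainly by neurons, while some are also transcribed by astrocytes and by oligodendrocyte progenitors.

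The targeted genes were read first. Dnmt1, the maintenance DNA methyltransferase, was at 10.6, 10.2 and 9.78 FPKM in Dnmt1 control libraries and at 7.26, 9.11 and 9.09 FPKM in Dnmt1 CKO mice, with no overlap. The log2 fold change was −0.27 (SE 0.098, adjusted p = 0.29, limma with Benjamini-Hochberg adjustment), and −0.16 without Dnmt1 CKO replicate 1. Dnmt3a, a de novo methyltransferase, was at 31.1, 16.9 and 28.7 FPKM in Dnmt3a control libraries and at 13.6, 14.2 and 15.4 FPKM in Dnmt3a CKO mice. Its log2 fold change was −0.78 (SE 0.23, adjusted p = 0.66, limma), and −1.05 (SE 0.069) without the second of these control libraries. The library labelled Dnmt3a Control replicate 2 therefore stood near the CKO level of the gene that it should carry intact. Values without it are given beside the fold changes of the subunit genes and for 2 of the ratios. They are also given for the AMPA, NMDA, kainate and GABA-A classes of the Dnmt3a line. The Olig1 level of that library, 49.8 FPKM, lay with the other Dnmt3a controls (48.4 and 44.1 FPKM). It was above the Dnmt3a CKO mice (30.6, 38.8 and 32.2 FPKM). Xist, the RNA of the inactive X chromosome, was at 49.4 FPKM in Dnmt1 Control replicate 3, at 49.4 FPKM in Dnmt3a Control replicate 3 and at 46.2 FPKM in Dnmt3a CKO replicate 3. It was at 1.69 to 1.85 FPKM in the 3 Dnmt1 CKO libraries and at most 0.0853 FPKM in the other 6. The labels give no sex. The Dnmt1 controls held both high and low Xist levels, and the Dnmt1 CKO libraries lay between them. Sex and genotype thus cannot be fully told apart in the Dnmt1 line. With log2 Xist as a covariate, 393 genes passed a false discovery rate of 10% there (limma), 0 of them subunit genes. Since the 3 Dnmt1 CKO libraries shared an intermediate Xist level, this covariate does not give their sex. That fit thus cannot remove an effect of sex. The summed FPKM ran from 342274 to 417856 over the libraries, the steps between low values gave relative depths from 0.856 to 1, and the reads behind each value are unknown.

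DNA methyltransferases act mostly on cytosines that are followed by guanine (CG). The upstream sequences of 4 of the 5 genes described in full are therefore shown with every CG in capitals. They are the 250 bases before the annotated start, 5′ to 3′ along the gene's strand, from RefSeq's GRCm38.p6 table, which matched 19 of the 27 genes with 23 windows. Methylation itself was not measured, and cytosines outside CG were not counted.
Grin2c (chr11:115267244-115267493, minus strand): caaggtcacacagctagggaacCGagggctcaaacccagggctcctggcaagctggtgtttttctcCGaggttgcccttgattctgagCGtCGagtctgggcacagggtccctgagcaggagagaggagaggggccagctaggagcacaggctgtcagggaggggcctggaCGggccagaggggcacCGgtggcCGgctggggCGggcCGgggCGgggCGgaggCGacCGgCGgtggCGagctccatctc
Gabrg1 (chr5:70842618-70842867, minus strand): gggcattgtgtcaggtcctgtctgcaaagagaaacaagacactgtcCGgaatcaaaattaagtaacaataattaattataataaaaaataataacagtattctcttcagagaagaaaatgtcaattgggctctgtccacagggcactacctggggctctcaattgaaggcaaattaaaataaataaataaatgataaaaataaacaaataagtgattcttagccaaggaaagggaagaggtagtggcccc
Grik3 (chr4:125490446-125490695, plus strand): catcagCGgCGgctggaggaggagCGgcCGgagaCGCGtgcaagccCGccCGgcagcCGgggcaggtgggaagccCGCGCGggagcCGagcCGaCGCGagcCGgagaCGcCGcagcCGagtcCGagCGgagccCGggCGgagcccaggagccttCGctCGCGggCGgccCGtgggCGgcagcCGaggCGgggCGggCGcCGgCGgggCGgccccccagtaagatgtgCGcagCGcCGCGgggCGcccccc
Gria2 (chr3:80802836-80803085, minus strand): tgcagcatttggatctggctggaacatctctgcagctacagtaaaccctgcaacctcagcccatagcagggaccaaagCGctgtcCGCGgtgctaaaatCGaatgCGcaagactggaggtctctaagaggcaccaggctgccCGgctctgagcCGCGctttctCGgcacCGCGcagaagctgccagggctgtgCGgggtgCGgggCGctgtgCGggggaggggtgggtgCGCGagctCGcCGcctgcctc
Grik3 held 42 CG pairs, Gria2 held 19, Grin2c held 15 and Gabrg1 held 1. CG reads the same on both strands, and 92.1% of all 32851 windows of this length hold at least 1, with a median of 6. As many pairs as in Grik3 occur in 0.865% of all windows, as many as in Gria2 in 19.7%, as many as in Grin2c in 27.3% and as many as in Gabrg1 in 92.1%. Over the 23 windows of the subunit genes the count ran from 0 in both Gabra3 windows to 42, with a median of 9, and the 3 annotated Gabrb2 windows held 8, 8 and 4. No window was given for Grik1, Gria1, Gria3, Grin2a, Grin2b, Grin3a, Grid1 and Gabrd.

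The order of the levels was read in the 6 control libraries of both lines. Grin1, the subunit that every NMDA receptor needs, was the most abundant transcript at 127 ± 5.82 FPKM (SD, n = 6), followed by Gria2, the AMPA subunit that keeps the channel closed to calcium, at 114 ± 1.04 FPKM. Gria1 stood at 65.3 ± 2.63 FPKM, Grik5, a high-affinity kainate subunit, at 52.6 ± 3.31 FPKM, and Gria3 at 48.3 ± 1.17 FPKM. Of the GABA-A genes, Gabrb2 was first at 40.1 ± 0.813 FPKM, and Gabra4, Gabra5, Gabra3 and Gabra2 followed between 26.2 and 29.1 FPKM. The neighbours in this order overlapped in 16 of 26 cases. Grin1 and Gria2 did not overlap, nor did Gria2 and Gria1, and Gabrb2 was clear of both its neighbours, whereas the 7 genes from Gabra4 to Gabrd formed a chain in which each overlapped the next. Grin2b, the NMDA subunit of early development, was at 27.3 ± 2.39 FPKM, Grin2a, which replaces it in part as cortex matures, at 11.7 ± 0.825 FPKM, Grin2c at 6.8 ± 0.284 FPKM and Grin2d at 3.09 ± 0.285 FPKM.

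**Figure D1:**
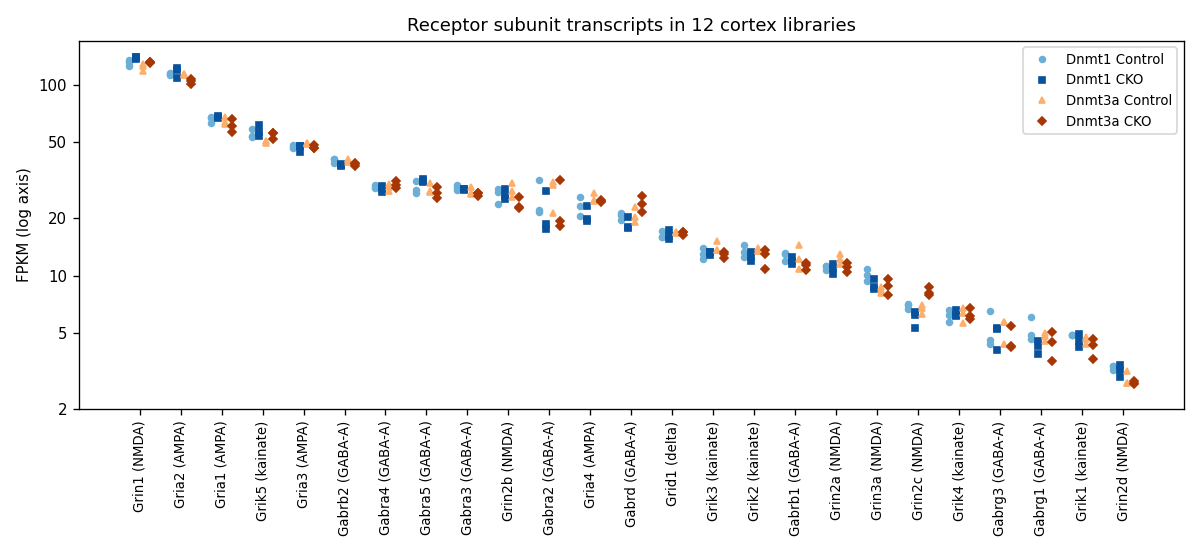
FPKM of the 25 tested subunit genes on a log axis (vertical), ordered by mean level along the horizontal axis, with 1 point per library and 1 marker for each of the 4 groups. The genes span from about 3.09 FPKM for Grin2d to 127 FPKM for Grin1 in the controls, and the points of most genes lie close together, with the widest spread for Gabra2.

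The remaining pair of genes was close to absent. Grin3b, an NMDA subunit best known from motor neurons, was between 0.0243 and 0.113 FPKM in all 12 libraries. Gabra6, the alpha subunit of cerebellar granule cells, was listed at 0 in 4 libraries, at 0.0104 to 0.0112 FPKM in 4 and at 0.0384 to 0.0553 FPKM in the other 4. Of the 4 cerebellar granule cell markers, Cbln3 and Fat2 were also under 0.5 FPKM in every library, and Zic1, the most abundant of the list, was at 1.86 to 4.35 FPKM.

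Some rows can hold reads of other genes, since the library kit named in the labels does not mark strand. Of the 50-base words of Grin1, 8.24% also occur in transcripts of another gene, nearly all in the antisense gene Grin1os. Grin2d shares 7.57% with an antisense gene, and Grin2a shares 11.6%, nearly all with Gm7328. Grin3b shares 23.6% with Tmem259 on the opposite strand. The other 23 genes shared under 5%, and Gabra4 and Gabrb1, which lie head to head on chromosome 5, overlap at their starts. For these genes reads of both strands or copies cannot be told apart.

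The first comparison asked which subunit transcripts differ when Dnmt1 is deleted in the Olig1 lineage. No subunit gene passed a false discovery rate of 10% in the Dnmt1 line (0 of 25), while 3.15% of the 14075 symbols tested did (443, of which 119 rose and 324 fell). The smallest adjusted p of a subunit gene was 0.25 (limma), and 2 of the 25 (8.0%) had an unadjusted p under 0.05, against 15.0% of all symbols. The values of the groups did not overlap for 4 of the 25 (16.0%), higher in the CKO mice for Grin1 and lower for Grin2c, Gabrb2 and Gabrg1, against 20.8% of all symbols. The median log2 fold change was −0.04 over the subunit genes and −0.02 over all rows. With median ratio scaling these medians were −0.016 and 0.0035. Without Dnmt1 CKO replicate 3 the median over the subunit genes was −0.066. The 95% interval of the fold change lay within 0.25 on the log2 scale to either side of 0 for 15 subunit genes and within 0.5 for 22.

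By class, the AMPA, NMDA, kainate and GABA-A genes each had fold changes on both sides of 0 in the Dnmt1 line. Of the 9 GABA-A genes tested, 8 had lower means in the CKO mice, with a median of −0.08, and the exception was Gabra5. The 4 AMPA genes had a median of 0.01, the 6 NMDA genes of −0.04 and the 5 kainate genes of 0.01. Since none passed the test, these are values and not calls.

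Gabrg1 encodes the gamma1 subunit of GABA-A receptors, which glial cells also express (chr5:70751047-70842617, minus strand, 9 exons). It was at 6.09, 4.9 and 4.65 FPKM in Dnmt1 control libraries and at 3.87, 4.56 and 4.29 FPKM in Dnmt1 CKO mice. The CKO values all lay below the controls, by a narrow margin, and 1 control stood well above the rest. The log2 fold change was −0.28 (SE 0.12, adjusted p = 0.35, limma), and −0.17 without that control (replicate 1). In the Dnmt3a line it was at 5, 4.55 and 4.8 FPKM in control mice and at 4.51, 5.04 and 3.57 FPKM in CKO mice. These groups overlapped, with a log2 fold change of −0.14 (SE 0.13, adjusted p = 0.81, limma). It was −0.17 without the library labelled Dnmt3a Control replicate 2, and it ran from −0.25 (Dnmt3a CKO replicate 2 left out) to −0.003 (Dnmt3a CKO replicate 3 left out). The difference between the lines was −0.15 (SE 0.18, adjusted p = 0.84, limma), from −0.28 (Dnmt3a CKO replicate 3 left out) to −0.03 (Dnmt1 Control replicate 1 left out).

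Gabrb2 encodes a beta subunit common in cortical GABA-A receptors (chr11:42419757-42629028, plus strand, 10 exons). It was at 40.8, 40.9 and 39 FPKM in Dnmt1 control libraries and at 37.6, 37.9 and 38.2 FPKM in CKO mice. In the Dnmt3a line it was at 40.7, 40.2 and 39.3 FPKM in control mice and at 37.6, 38.6 and 38.8 FPKM in CKO mice. In both lines all CKO values lay below all control values, with little spread within a group. The log2 fold changes were −0.08 (SE 0.028, adjusted p = 0.25) and −0.06 (SE 0.027, adjusted p = 0.66; limma), and neither was called. Without the library labelled Dnmt3a Control replicate 2 the second was again −0.06. Its pooled spread within groups, 0.027 on the log2 scale, was smaller than that of all but 0.716% of the rows.

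Grin1 was the other gene whose groups separated in the same direction in both lines. It was at 126, 131 and 135 FPKM in Dnmt1 control libraries and at 136, 140 and 140 FPKM in CKO mice. The Dnmt3a controls were at 129, 126 and 118 FPKM and the CKO mice at 132, 130 and 131 FPKM. The CKO values were higher in both lines by a margin close to the spread of the controls, with log2 fold changes of 0.08 (SE 0.037, adjusted p = 0.37) and 0.08 (SE 0.039, adjusted p = 0.69; limma). The Dnmt3a value was 0.09 without the library labelled Dnmt3a Control replicate 2, 0.04 without Dnmt3a Control replicate 3 and 0.0098 after quantile normalization.

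**Figure D2:**
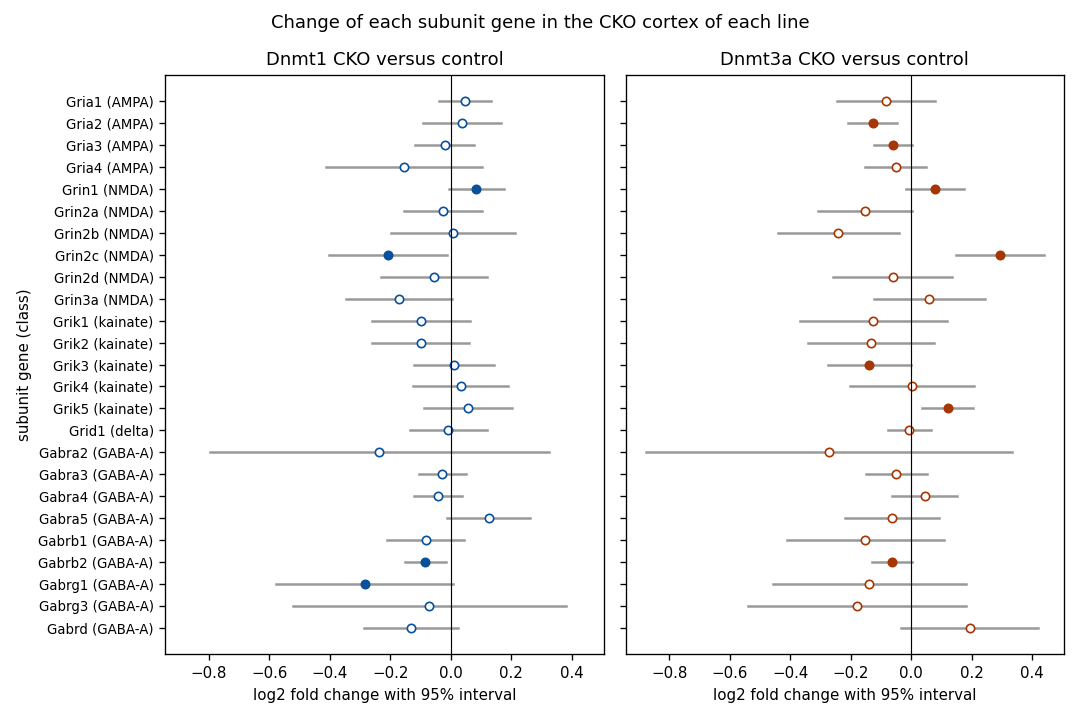
Log2 fold change (horizontal) of each tested subunit gene (vertical, with its class) in CKO against control cortex, for the Dnmt1 line on the left and the Dnmt3a line on the right, with 95% intervals from limma; filled points mark genes whose control and CKO values do not overlap. The largest values are those of Grin2c in the Dnmt3a line (0.29) and Gabrg1 in the Dnmt1 line (−0.28), and Gabra2 has the widest intervals.

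The same question was asked of Dnmt3a, where 0 of 25 subunit genes passed 10% FDR (limma), against 0.0142% of all symbols (2, both higher; 7.36% at an unadjusted p under 0.05). The smallest adjusted p of a subunit gene was 0.66, and 5 of the 25 had an unadjusted p under 0.05. The groups did not overlap for 7 of the 25 (28.0%), higher in the CKO mice for Grin1, Grin2c and Grik5 and lower for Gria2, Gria3, Grik3 and Gabrb2, against 12.8% of all symbols. Without the library labelled Dnmt3a Control replicate 2, again 0 subunit genes and 2 genes in all were called. The 4 AMPA genes all had lower means in the CKO mice, with fold changes from −0.13 to −0.05. Of the 5 kainate genes 3 were lower and 2 higher, with a median of −0.13. Of the 9 GABA-A genes tested 7 were lower and 2 higher, with a median of −0.06. Of the 6 NMDA genes tested 3 were lower and 3 higher, with a median of −0.00076. Without the library labelled Dnmt3a Control replicate 2 the AMPA fold changes ran from −0.12 to −0.01. The medians were then −0.14 for kainate, −0.08 for GABA-A and −0.015 for NMDA genes. The median was −0.06 over the 25 genes and 0.01 over all rows.

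Gria2 was at 115, 114 and 113 FPKM in Dnmt3a control libraries and at 101, 105 and 108 FPKM in the Dnmt3a CKO mice (chr3:80681450-80802835, minus strand, 16 exons). All 3 CKO values lay below the tightly grouped controls. The log2 fold change was −0.13 (SE 0.033, adjusted p = 0.66, limma), and −0.12 without the library labelled Dnmt3a Control replicate 2. In the Dnmt1 line it was at 114, 113 and 115 FPKM in control mice and at 120, 108 and 123 FPKM in CKO mice. There the CKO values lay on both sides of the controls, with a log2 fold change of 0.04 (SE 0.053, adjusted p = 0.81, limma), which ran from 9.1e-05 (Dnmt1 CKO replicate 3 left out) to 0.09 (Dnmt1 CKO replicate 2 left out). The difference between the lines was 0.16 (SE 0.065, adjusted p = 0.39), and it was called only without Dnmt1 CKO replicate 2, at 0.22 (adjusted p = 0.07, limma). The AMPA transcripts summed to 257, 253 and 251 FPKM in Dnmt3a control libraries and to 233, 242 and 237 FPKM in Dnmt3a CKO mice. In the Dnmt1 line the sums were 249, 247 and 255 FPKM in control mice and 260, 241 and 258 FPKM in CKO mice, which overlapped.

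Grik3, a low-affinity kainate subunit (chr4:125490700-125714173, plus strand, 16 exons), was at 13.7, 13.6 and 15.2 FPKM in Dnmt3a control libraries and at 12.9, 12.4 and 13.3 FPKM in CKO mice. The groups were close but did not overlap, with a log2 fold change of −0.14 (SE 0.056, adjusted p = 0.66, limma). It was −0.16 without the library labelled Dnmt3a Control replicate 2 and −0.09 without Dnmt3a Control replicate 3, the highest of the controls. In the Dnmt1 line it was at 13.9, 13 and 12.2 FPKM in control mice and at 12.8, 13.2 and 13.3 FPKM in CKO mice. The CKO values lay inside the control range, with a log2 fold change of 0.01 (SE 0.053). The lines differed by 0.15 (SE 0.08, adjusted p = 0.57, limma), or by 0.1 without Dnmt3a Control replicate 3.

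Gria3, an AMPA subunit on the X chromosome, and Grik5 also separated in the Dnmt3a line. Gria3 had a log2 fold change of −0.06 and Grik5 of 0.12, with adjusted p = 0.66 for both (limma), and −0.06 and 0.13 without the library labelled Dnmt3a Control replicate 2. Grin2b had a log2 fold change of −0.24 (SE 0.082, adjusted p = 0.66, limma). It was at 30.7, 25.8 and 27.8 FPKM in these controls and at 25.9, 22.8 and 22.6 FPKM in CKO mice, so that the overlap came from the library labelled Dnmt3a Control replicate 2, without which the value was −0.3 (SE 0.081, adjusted p = 0.72, limma). None of these genes was called.

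The comparison of the lines themselves was tested as the difference of the CKO effects, over all 12 libraries and with separate controls for each line. Here 1 of the 25 subunit genes, Grin2c, passed 10% FDR, against 2.12% of all symbols (299, of which 41 were on the higher and 258 on the lower side for Dnmt1). Grin2c encodes the NMDA subunit GluN2C, known from cerebellar granule cells and, in the forebrain, from astrocytes and some interneurons (chr11:115249169-115267243, minus strand, 15 exons). It was at 7.03, 6.65 and 7.07 FPKM in Dnmt1 control libraries and at 6.41, 6.23 and 5.33 FPKM in Dnmt1 CKO mice. In the Dnmt3a line it was at 6.33, 6.76 and 6.98 FPKM in control mice and at 7.88, 8.67 and 8.11 FPKM in CKO mice. The groups did not overlap in either line, and the CKO values were the lower ones in the Dnmt1 line and the higher ones in the Dnmt3a line. The log2 fold changes were −0.21 (SE 0.08, adjusted p = 0.31) and 0.29 (SE 0.059, adjusted p = 0.66), neither of them called. The first was −0.13 without Dnmt1 CKO replicate 3, and the second 0.3 without the library labelled Dnmt3a Control replicate 2. Their difference was −0.5 (SE 0.098, adjusted p = 0.028, limma). The difference was −0.51 without the library labelled Dnmt3a Control replicate 2 (adjusted p = 0.068, limma). It passed the threshold under each of the 24 alternatives, with values from −0.55 to −0.42 and adjusted p from 0.021 to 0.095. The controls of both lines differed by −0.05 (adjusted p = 0.87), Dnmt3a minus Dnmt1.

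**Figure D3:**
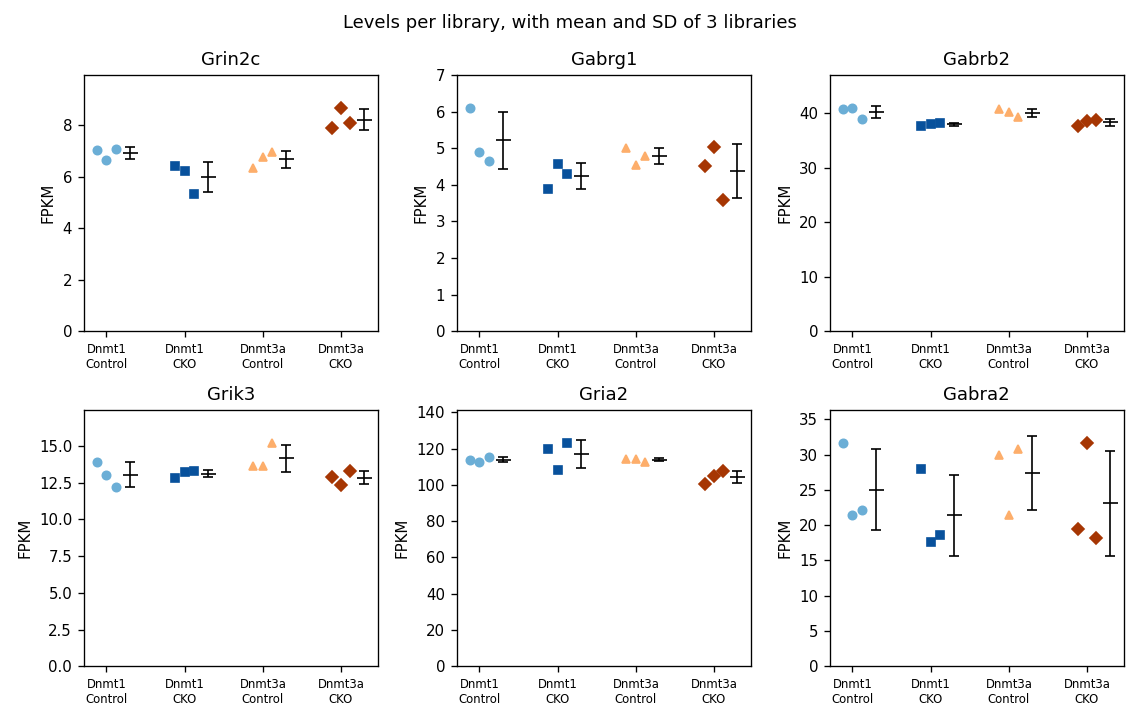
FPKM (vertical, from 0) of 6 subunit genes in each of the 4 groups (horizontal), with 1 point per library and the mean with SD of 3 libraries in black. Grin2c is lowest in the Dnmt1 CKO mice (5.33 to 6.41) and highest in the Dnmt3a CKO mice (7.88 to 8.67), and Gabra2 falls into 2 ranges within every group.

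Markers of interneurons and astrocytes, cells that could carry Grin2c, were read beside it. Over the 8 interneuron markers the median log2 fold change was −0.024 in the Dnmt1 line and 0.16 in the Dnmt3a line. In bulk tissue fewer cells of a type and less RNA per cell cannot be told apart. Of 8 interneuron markers, 1 was called in the difference between the lines: Pvalb, the calcium buffer of fast-spiking interneurons, was at 16.8, 19 and 18 FPKM in Dnmt1 control libraries, 15.2, 15.2 and 14.1 FPKM in Dnmt1 CKO mice, 19.4, 22.2 and 19.1 FPKM in Dnmt3a control libraries and 26.9, 25.3 and 29.8 FPKM in Dnmt3a CKO mice. Its groups were apart in both lines and on the same sides as those of Grin2c, with a difference of −0.7 (SE 0.1, adjusted p = 0.0057, limma). In the Dnmt1 line it fell by 0.27 (adjusted p = 0.098, limma), a call lost under 12 of 19 alternatives. In the Dnmt3a line its log2 fold change was 0.43 (adjusted p = 0.66, limma), or 0.5 without the library labelled Dnmt3a Control replicate 2. The most abundant marker of that list, Sst, was at 223 to 283 FPKM and was not called, and the summed list was at 409 to 438 FPKM in Dnmt1 control libraries, 398 to 429 in Dnmt1 CKO mice, 393 to 441 in Dnmt3a control libraries and 470 to 498 in Dnmt3a CKO mice. Of 8 astrocyte markers 0 were called in the difference by limma, with a median of −0.16. At an unadjusted p under 0.05 there were 5 of the 8 in the difference and 4 in the Dnmt3a line, against 10.6% and 7.36% of all symbols, and of the interneuron markers 2 and 3 of 8. Gfap alone was called in the Dnmt1 line, where it rose by 0.45 (SE 0.042, adjusted p = 0.0065, limma). There 3 of the 8 had an unadjusted p under 0.05, against 15.0% of all symbols. Besides Gfap these were Aqp4 (−0.28) and Gja1 (−0.11), both lower in all Dnmt1 CKO libraries. Over all 8 astrocyte markers the median was −0.005 in the Dnmt1 line and 0.14 in the Dnmt3a line. The summed astrocyte markers, led by Aldoc, were at 465 to 475 FPKM in Dnmt1 control libraries, 472 to 480 in Dnmt1 CKO mice, 445 to 477 in Dnmt3a control libraries and 502 to 542 in Dnmt3a CKO mice. No marker of the 2 lists was at 0. The part of these cells in the Grin2c values was not tested.

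No other subunit gene was called in the difference between the lines. Gabrd, the delta subunit of GABA-A receptors outside synapses, had uncalled log2 fold changes, −0.13 for the Dnmt1 line and 0.19 for the Dnmt3a line, and their difference was −0.32 (SE 0.12, adjusted p = 0.33, limma). It was at 17.8 to 20.4 FPKM in Dnmt1 CKO mice and at 21.6 to 26 FPKM in Dnmt3a CKO mice, while the controls of both lines spanned 19.1 to 23 FPKM. Without the library labelled Dnmt3a Control replicate 2, which had the highest Gabrd level of the controls, the fold change in the Dnmt3a line was 0.27 and the difference −0.4 (adjusted p = 0.18, limma), whereas without Dnmt3a CKO replicate 1 that fold change was 0.13. Grin3a, an NMDA subunit that lowers calcium entry, differed by −0.23 (adjusted p = 0.47) and Gabra5, an alpha subunit of receptors outside synapses, by 0.19 (adjusted p = 0.5). In the Dnmt1 line Gabra5 had a log2 fold change of 0.13 (SE 0.056, adjusted p = 0.37) and was called there only without Dnmt1 Control replicate 1, at 0.19 (adjusted p = 0.089, limma), while it was 0.08 without Dnmt1 Control replicate 3.

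**Figure D4:**
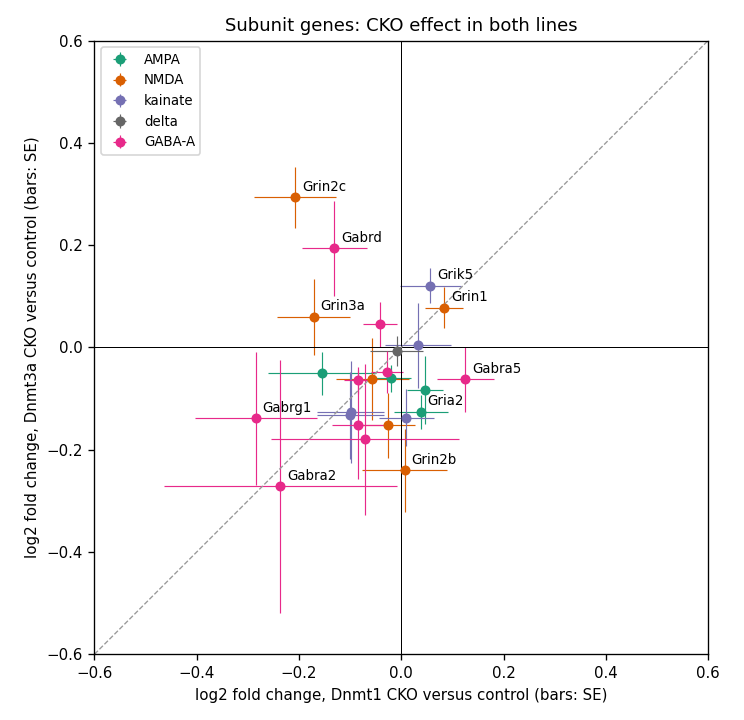
Log2 fold change of the 25 tested subunit genes in the Dnmt1 line (horizontal) and in the Dnmt3a line (vertical), coloured by receptor class, with SE bars and the line of equal change dashed. Grin2c lies farthest from the dashed line, at −0.21 and 0.29, and Gabrd is the next.

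The control groups were compared with each other to show how far the lines differ without cre, where line, litter and handling cannot be told apart. Of the 25 subunit genes 0 were called, against 0.0071% of all symbols (1 gene). At an unadjusted p under 0.05 there were 4 of the 25 (16.0%), against 7.74% of all symbols (1089). The groups did not overlap for 6 of the 25 (24.0%), against 12.6% of all symbols. Gria3 (0.05) and Grin2a (0.14) were higher in all Dnmt3a controls, and Grin2d (−0.19), Grin3a (−0.26), Grik1 (−0.08) and Grik5 (−0.14) were lower, as log2 fold changes with adjusted p of 0.59 or more (limma). With 1 library left out, the value of Grik1 ran from −0.11 to −0.05. These controls include the library labelled Dnmt3a Control replicate 2. Without it, again 0 subunit genes and 2 genes in all were called. Fold changes between CKO and control for Grik5 in the Dnmt3a line, 0.12, were thus no larger than that between the control groups.

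Gabra2, an alpha subunit of inhibitory synapses, among them those on the axon initial segment, varied more than its neighbours. It was at 31.6, 21.4 and 22.1 FPKM in Dnmt1 control libraries, 27.9, 17.6 and 18.6 FPKM in Dnmt1 CKO mice, 29.9, 21.4 and 30.8 FPKM in Dnmt3a control libraries and 19.4, 31.6 and 18.2 FPKM in Dnmt3a CKO mice. The libraries fell into a lower range of 17.6 to 22.1 FPKM (7 libraries) and an upper range of 27.9 to 31.6 FPKM (5 libraries), and every group had libraries in both. The log2 fold changes were −0.24 (SE 0.23) in the Dnmt1 line and −0.27 (SE 0.25) in the Dnmt3a line, or −0.44 (SE 0.25) without the library labelled Dnmt3a Control replicate 2. Leaving out each library in turn moved them from −0.44 (Dnmt1 CKO replicate 1) to −0.06 (Dnmt1 Control replicate 1) and from −0.52 (Dnmt3a CKO replicate 2) to −0.13 (Dnmt3a CKO replicate 3). With adjusted p of 0.7 and 0.8 (limma) and intervals that reach −0.8 and −0.88, a change of that size was not detectable with 3 libraries per group. The pooled spread within groups was 0.35 on the log2 scale, larger than that of 98.7% of the 1927 rows whose mean level lay within 0.5 of its own on the log2 scale. Gabra2 lies in a GABA-A gene cluster on chromosome 5 (chr5:70957597-71095849, minus strand, 10 exons) between Gabrg1 and the pair of Gabra4 and Gabrb1. Over the 12 libraries Gabra4 was at 27.5 to 31.1 FPKM, Gabrb1 at 10.7 to 14.6 FPKM and Gabrg1 at 3.57 to 6.09 FPKM, where 1 library stood above the other 11, which reached 5.04 FPKM.

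Ratios within a library do not depend on the scaling between libraries, and 7 of them were compared in both lines, 14 tests in all. The log2 ratio of Grik5 to Grik2, a high-affinity to a low-affinity kainate subunit, was 2, 2.1 and 1.98 in Dnmt1 control libraries and 2.24, 2.2 and 2.1 in Dnmt1 CKO mice. In the Dnmt3a line it was 1.89, 1.91 and 1.81 in the controls and 2.09, 2.03 and 2.25 in the CKO mice. The CKO ratios were above all control ratios in both lines, by 0.16 and 0.25 on average (0.27 in the Dnmt3a line without the library labelled Dnmt3a Control replicate 2). Each gave p = 0.1 in a two-sided exact permutation test, the smallest that 3 against 3 allows, and 0.583 after adjustment over the 14 tests. In the other 12 tests the groups overlapped, with exact p from 0.2 to 0.9. The log2 ratio of Grin2a to Grin2b, which rises as cortex matures, was −1.25 ± 0.17 in Dnmt1 control libraries, −1.28 ± 0.021 in Dnmt1 CKO mice, −1.19 ± 0.1 in Dnmt3a control libraries and −1.1 ± 0.065 in the Dnmt3a CKO mice (SD, n = 3; exact permutation p = 0.8 and 0.3). Its mean was higher by 0.088 in Dnmt3a CKO mice, or by 0.15 without the library labelled Dnmt3a Control replicate 2. The difference was 0.051 without Dnmt3a Control replicate 3 and also 0.051 without Dnmt3a CKO replicate 3. Gria2 made up 45.5% ± 0.258 of the summed AMPA transcripts in Dnmt1 control libraries, 46.3% ± 1.4 in Dnmt1 CKO mice, 44.9% ± 0.341 in Dnmt3a control libraries and 43.9% ± 1.23 in the Dnmt3a CKO mice (SD, n = 3; exact permutation p = 0.5 and 0.4). The CKO mean differed from the control mean by 0.82 percentage points in the Dnmt1 line and by −0.99 in the Dnmt3a line. With 1 library left out, these values ran from 0.076 to 1.46 and from −1.7 to −0.6.

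**Figure D5:**
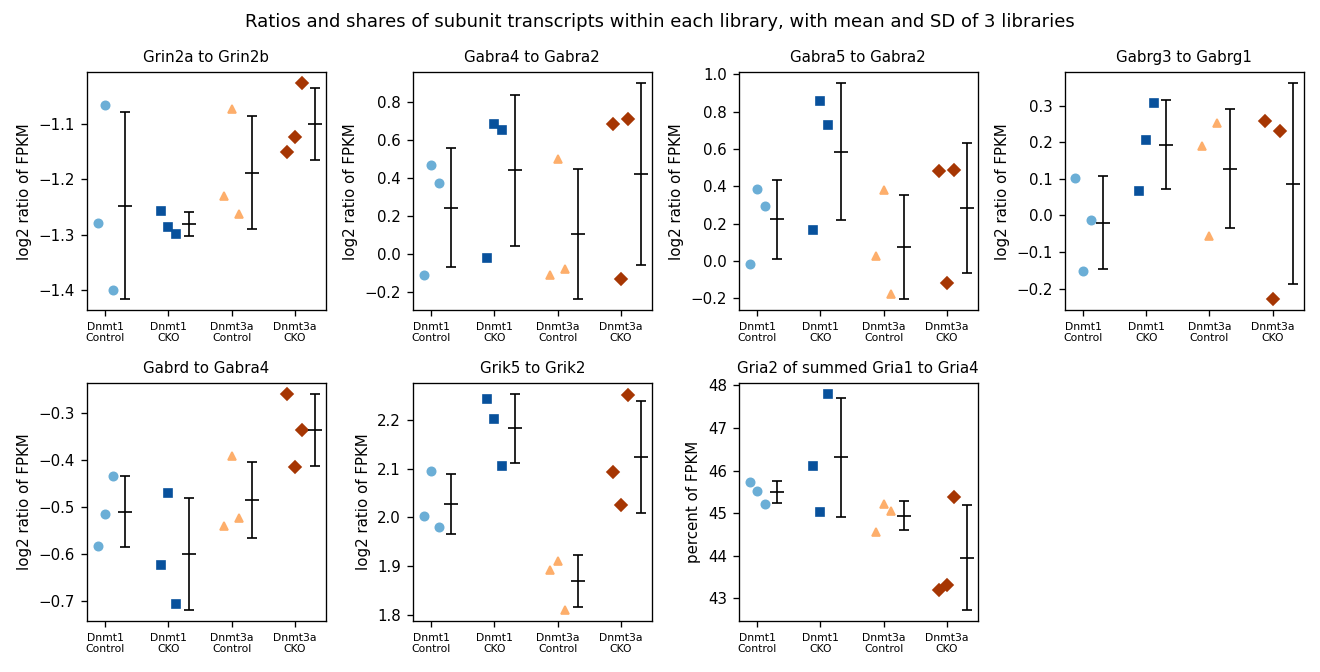
Log2 ratios of FPKM for 6 pairs of subunit genes, and the percent of Gria2 in the summed AMPA transcripts (vertical axes), in each of the 4 groups (horizontal), with 1 point per library and the mean with SD of 3 libraries in black. The ratio of Grik5 to Grik2 separates CKO from control libraries in both lines, and the other 6 panels overlap.

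Genes around the receptors were read from lists written with the members. Of 18 auxiliary subunit and delta receptor ligand genes, led by Cnih2 (127 to 153 FPKM), 1 was called: Cbln1, a secreted protein that joins delta receptors to presynaptic neurexin, was at 4.84, 5.19 and 5.29 FPKM in Dnmt1 control libraries and 6.39, 6.22 and 6.54 FPKM in Dnmt1 CKO mice. It rose by 0.32 on the log2 scale (SE 0.053, adjusted p = 0.052, limma), a call that was lost in 5 of the 6 fits that left out a library, with adjusted p up to 0.22. Of 20 postsynaptic scaffold genes, led by Camk2a (453 to 522 FPKM), 0 were called in any comparison by limma. The same held for the 9 metabotropic receptor genes tested, led by Gabbr1 (101 to 112 FPKM). At an unadjusted p under 0.05 there were 2 of the 20 scaffold genes in each line. Of the 9 metabotropic genes there were 0 in the Dnmt1 line and 2 in the Dnmt3a line. Of all symbols, 15.0% were under it in the Dnmt1 line and 7.36% in the Dnmt3a line. Of 15 genes of transmitter synthesis and transport, led by Slc17a7 (418 to 489 FPKM), 1 was called in the Dnmt1 line. Slc12a2, the chloride importer NKCC1 that sets the gradient for GABA-A currents and that oligodendrocyte progenitors also express, was at 13.1, 12 and 12 FPKM in Dnmt1 control libraries and 8.09, 8.43 and 7.99 FPKM in Dnmt1 CKO mice. It fell by 0.6 on the log2 scale (SE 0.049, adjusted p = 0.0048, limma), and all 3 CKO values lay well below the controls. Both Slc12a2 and Slc1a2, the glutamate transporter of astrocytes, were called in the difference between the lines, by −0.61 (adjusted p = 0.013) and −0.21 (adjusted p = 0.097, limma). The call of Slc1a2 was lost under 19 of 24 alternatives. None of these 4 lists had a gene called in the Dnmt3a line, where 2 auxiliary and 1 transporter gene had an unadjusted p under 0.05. In the Dnmt1 line 3 of the 18 auxiliary and 2 of the 15 transporter genes were under it.

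Cell type markers moved in the Dnmt1 line beside these values. All 9 myelin markers fell, with a median of −1.96; Mbp, the most abundant, fell from 991 to 1189 FPKM in control mice to 313 to 370 FPKM in CKO mice, and Opalin, Mobp and Mal had the largest log2 fold changes, −2.45, −2.23 and −2.09 (adjusted p from 0.00021 to 0.0023, limma). Between the control groups 0 of the 9 were called, but 8 had an unadjusted p under 0.05, against 7.74% of all symbols, and the median was 0.34, Dnmt3a minus Dnmt1. Their sum was at 1942 to 2261 FPKM in the Dnmt1 controls and at 2470 to 2951 FPKM in the Dnmt3a controls, with no overlap. Of 8 oligodendrocyte progenitor markers 5 were called, all lower: Neu4 (−0.65), Gpr17 (−0.56), Olig2 (−0.54), Bmp4 (−0.45) and Pdgfra (−0.3). The call of Olig2 was lost under 7 of 19 alternatives. Lhfpl3 (−0.21), Ptprz1 (−0.1) and Cspg4 (−0.0006) were not called. The sum of the 8 was at 115 to 126 FPKM in control mice and 91.7 to 97.8 FPKM in CKO mice. Of 6 microglia markers C1qa rose, by 0.34 (adjusted p = 0.013, limma). None of the 10 neuron markers was called in any comparison. An unadjusted p under 0.05 was found for 1 of the 10 in the Dnmt1 line, 2 in the difference and 1 between the controls. Of all symbols, 15.0%, 10.6% and 7.74% were under it in these comparisons. The neuron markers summed to 2371 to 2525 FPKM in Dnmt1 control libraries and 2424 to 2498 in Dnmt1 CKO mice. In the Dnmt3a line the sum was at 2342 to 2419 FPKM in control libraries and 2442 to 2476 in CKO mice, with no overlap. The median log2 fold change of the neuron markers was 0.046 there. Snap25, the most abundant of them, was at 496 to 603 FPKM. Transcripts of these neuronal markers were thus present in every library of the labelled tissue, cortex. The part of the oligodendrocyte lineage in the subunit values was not tested.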

How the data were processed

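RNA-seq libraries of cortex from 12 mice were analysed from the authors' table of FPKM per gene symbol. The submitters' processing notes name Cufflinks and the mm10 build, and per the study's methods reads were aligned with TopHat. Whether the authors scaled the FPKM any further is not given in the sources used here. Columns were matched to samples by name, and 302 exact duplicates among 23850 deposited rows were dropped. Rows averaging 0.5 FPKM or more (14115 rows, 14075 symbols) were put on the log2(FPKM + 0.1) scale, on which all fold changes are given and which understates changes of low genes. Each comparison used limma 3.58.1 under R 4.3.3 (a linear model per row, moderated with a trend in the variance) on its own 6 libraries. The difference between the lines was an interaction over all 12. Benjamini-Hochberg adjustment ran over all rows, with a threshold of 10% FDR. The study's own test of reads was not repeated. Subunit ratios were compared with two-sided exact permutation tests. The labels call the samples biological replicates.

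The members, the other gene lists and the ratios were chosen with earlier results of these data known. Described in full were members past the threshold and, per line, the 3 with the largest changes among those whose groups do not overlap. From each other list came its most abundant gene and up to 3 called genes with the largest changes, besides Dnmt1, Dnmt3a and Olig1. Other members given with values, such as Grin1, Gabra2, Gabra5 and Gabrd, were picked once the values were known. Positions, exons and shared 50-base words came from GENCODE M21 on GRCm38, the assembly also called mm10, and upstream windows from RefSeq. The procedure was tested on simulated data, in which the planted changes were larger than those of the subunit genes within either line. The simulation thus does not show how well changes of that smaller size are found. Alternatives were another pseudocount, filter, variance model, scaling or threshold, values summed per symbol, a replicate block, an Xist covariate, 1 model of the 4 groups, and each library left out. Between 120 and 136 rows per library were listed at 0 although they averaged above 5 FPKM. Read counts are unknown, so no counting error is given.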

Additional observations from a re-analysis of the deposited data

Results flagged for a closer look

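In each of the following genes the CKO effect differed between the Dnmt1 and the Dnmt3a line at 10% FDR in the interaction test of limma, which is what singles them out. Values are the log2 fold change of the Dnmt1 line minus that of the Dnmt3a line. Among the receptor subunits this held for Grin2c, at −0.501 (adjusted p = 0.028), with CKO values below every control in the Dnmt1 line and above every control in the Dnmt3a line. Of the genes around the receptors it held for Cbln1, at 0.53 (adjusted p = 0.031), for Slc12a2, at −0.61 (adjusted p = 0.013), and for Slc1a2, at −0.21 (adjusted p = 0.097). The call of Cbln1 was lost under 2 of 24 alternatives and that of Slc1a2 under 19 of 24, with adjusted p up to 0.27. Of the named markers it held for Pvalb, at −0.703 (adjusted p = 0.0057), Neu4, at −0.44 (adjusted p = 0.011), Gpr17, at −0.64 (adjusted p = 0.0022), Mbp, at −1.79 (adjusted p = 1.6e-05), Opalin, at −2.53 (adjusted p = 1.5e-05), Mobp, at −2.24 (adjusted p = 3.7e-06), and Mal, at −2.15 (adjusted p = 1.2e-05). Olig1, the locus of cre, differed by −0.6996 (adjusted p = 0.032), with log2 fold changes of −1.19 in the Dnmt1 line and −0.49 in the Dnmt3a line, and its call was lost under 1 of 24 alternatives. Groups of 3 are too small for the check on single libraries far from their group.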

How the results depend on the processing

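The count of subunit genes called was the same under every alternative in the Dnmt3a line and between the controls (0), and changed elsewhere in 1 refit each. It was 0 to 1 in the Dnmt1 line with 1 library left out (Gabra5, without Dnmt1 Control replicate 1), and 1 to 2 in the difference between the lines (Gria2 besides Grin2c, without Dnmt1 CKO replicate 2). The count of all genes called in the Dnmt1 line was 262 at 5% FDR and 198 to 340 with 1 library left out (205 without Dnmt1 Control replicate 2, and 198, 265 and 215 without Dnmt1 CKO replicates 1, 2 and 3). In the Dnmt3a line it was 1 with a pseudocount of 1, a minimum of 1 FPKM, quantile normalization, 1 model of all libraries, 5% FDR or the Xist covariate, 17 without a filter, and 2 to 5 with 1 library left out. Between the controls it was 0 with a pseudocount of 1, 1 model of all libraries or the Xist covariate, 7 without a filter, 6 with the robust setting, and 1 to 4 with 1 library left out. With the replicate block it was 161 in the Dnmt1 line, 1 in the Dnmt3a line and 0 between the controls, and Grin2c was still called in the difference (adjusted p = 0.083, limma). The block rests on shared numbers only, since the deviations of same-numbered control and CKO libraries correlated only at −0.06, 0.04 and −0.03 in the Dnmt1 line and at 0.02, −0.08 and −0.004 in the Dnmt3a line, and samples did not all correlate best with their own number. Of 1368 refitted fold changes of named genes, 47 lost a call, 3 gained one and 13 changed sign, the last all uncalled and near 0. The calls lost were those of Pvalb (12), Olig2 (7) and Cbln1 (6) in the Dnmt1 line and of Slc1a2 (19), Cbln1 (2) and Olig1 (1) in the difference. The sign changes were Gabrb2 in the difference (0.0153 with median ratio scaling, 0.0206 with quantile normalization) and between the controls (0.0218 and 0.0302, and −0.0262 to 0.0101 with 1 library left out), and, with 1 library left out, Gabrg1 between the controls (−0.189 to 0.003002), Grik3 in the Dnmt1 line (−0.0371 to 0.0574) and Gria2 between the controls (−0.00797 to 0.00983). The log2 ratio of Grin2a to Grin2b in the Dnmt1 line changed by −0.11 to 0.058, and that of Gabrg3 to Gabrg1 in the Dnmt3a line by −0.13 to 0.12. Both ratios changed sign with 1 library left out (Dnmt1 Control replicate 2, and Dnmt3a Control replicate 3 or Dnmt3a CKO replicate 2). The cause of these changes was not tested. With 3 libraries a group and no read counts, small differences of low genes were not detectable.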

Other observations

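Markers of neighbouring brain regions varied between libraries. Of 6 striatum markers 0 were called in any comparison by limma, and 0 had an unadjusted p under 0.05. Their leading gene, Ppp1r1b, stood at 121, 56.4 and 102 FPKM in Dnmt1 control libraries, 72.4, 128 and 102 FPKM in Dnmt1 CKO mice, 70.5, 100 and 109 FPKM in Dnmt3a control libraries and 134, 128 and 64.2 FPKM in Dnmt3a CKO mice. The libraries with the lowest summed striatum markers, Dnmt1 Control replicate 2 (102 FPKM), Dnmt3a CKO replicate 3 (114 FPKM), Dnmt1 CKO replicate 1 (123 FPKM) and Dnmt3a Control replicate 1 (125 FPKM), held 2 of the lower and 2 of the upper range of Gabra2. Of 3 thalamus markers, Prkcd, the most abundant, reached 10.6 FPKM in Dnmt3a CKO replicate 1 against 3.27 to 4.82 FPKM elsewhere. Tcf7l2 was at 1.65, 1.45 and 1.66 FPKM in Dnmt1 control libraries and lower, at 1.09, 1.36 and 1.06 FPKM, in all Dnmt1 CKO libraries (log2 fold change −0.41, adjusted p = 0.19, limma). None of the 3 was called. The myelin markers also fell in the Dnmt1 line, and which cells held the Tcf7l2 transcripts was not tested. An unadjusted p under 0.05 was found for Tcf7l2 in the Dnmt1 line and for Tcf7l2 and Lef1 in the difference. Of all symbols, 15.0% and 10.6% were under it there. Endothelial markers, led by Cldn5 at 19 to 29.9 FPKM, were not called in any comparison, with an unadjusted p under 0.05 for 2 of 6 in the Dnmt1 line, 3 of 6 in the difference and 1 of 6 between the controls (Cldn5, −0.23), against 15.0%, 10.6% and 7.74% of all symbols. The part of the dissection in the subunit values was not tested.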
